A study of Mus musculus with 6 samples.

Results

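Distal CDK6 peaks that were found in both replicate 1 libraries and in neither replicate 2 library were examined. Peaks of the 4 anti-HA ChIP-seq lists that shared 1 bp or more were merged into 56716 regions on chromosomes 1 to 19 and X. Of these, 37261 were distal, which means that they overlapped no annotated promoter window, set here as 2000 bp before and 200 bp after a transcript start. Among the distal regions, 4546 held a peak in the lists of CDK6-WT 1 and CDK6-K43M 1 and none in those of CDK6-WT 2 and CDK6-K43M 2. This was 12.2% of the distal regions, a share that the selection itself fixed. The mirror set, distal regions in both replicate 2 lists only, held 5214 regions, and 8148 distal regions were found in all 4 lists. The members were chosen by the presence and absence of called peaks, so neither their number nor their strength was tested. When CDK6-WT 1 was left out, so that CDK6-K43M 1 alone defined the replicate 1 side, the number was 9511. Without CDK6-K43M 1 it was 6868, without CDK6-WT 2 it was 5527 and without CDK6-K43M 2 it was 5688.

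The design set wildtype against kinase-inactive CDK6 on chromatin. Libraries came from mouse pre/pro B cell lines, BCR-ABL(p185)+ and Cdk6-/-, that had received HA-tagged CDK6-WT or kinase-inactive HA-tagged CDK6-K43M from a pMSCV-IRES-GFP retroviral plasmid, with 2 libraries per variant. All groups shared the oncogene and the deletion of endogenous Cdk6, the tagged protein was overexpressed, and chromatin was crosslinked with DSG and formaldehyde before pull-down with an antibody against HA. The labels do not say whether a replicate number stands for a cell line, a day, a sequencing run or an input library, so these cannot be told apart. The 2 input libraries were not analysed here. The lists held 35189 (CDK6-WT 1), 34729 (CDK6-WT 2), 39797 (CDK6-K43M 1) and 37304 peaks (CDK6-K43M 2). They state no read totals. From the peak statistics the treatment depth was recovered as 10.08, 10.49, 12.04 and 9.563 reads per kb in the same order, on a scale that is relative because the effective genome size is unknown. On that scale the control depth was 9.776 in both replicate 1 lists, 9.652 in CDK6-WT 2 and 9.563 in CDK6-K43M 2. Whether the lists of a replicate number shared an input library was not tested.

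The libraries stood apart by replicate number. Of the distal regions with a peak in exactly 2 lists, 4546 joined the replicate 1 libraries and 5214 the replicate 2 libraries. Only 147 joined the CDK6-WT libraries, 534 joined the CDK6-K43M libraries, 337 joined CDK6-WT 2 with CDK6-K43M 1, and 0.539% of all distal regions joined CDK6-WT 1 with CDK6-K43M 2. As a check of the cell type label, 17 of 22 B-lineage transcription factor genes and 13 of 16 pre-B cell receptor and recombination genes had a promoter region in all 4 lists, against 6 of 18 T-cell, 3 of 20 myeloid and 2 of 17 erythroid and megakaryocyte genes. Over all protein-coding genes the share was 33.7%. Lists that mark no lineage were as high, with 21 of 25 cell cycle genes and 16 of 20 glycolysis genes, so these counts do not single out the B lineage.

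CDK6 is a cell cycle kinase that pairs with D-type cyclins and phosphorylates the retinoblastoma protein. It also reaches chromatin, although it has no DNA-binding domain of its own and depends on partner proteins to get there. Distal chromatin holds enhancers, where RUNX, ETS, EBF and E2A factors bind in B-cell precursors, and insulators, where the zinc finger protein CTCF binds and, with cohesin, anchors chromatin loops.

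Below are 8 windows, each a summit with 100 bp to either side and read from the GRCm38 (mm10) plus strand. They are shown because they carry the sequence feature that set the members apart, the CTCF motif, or because they lead the set without it. Capitals mark matches to the relaxed CTCF form (CC, any 3 bases, AG, any 2 bases and GGC), RUNX (TGTGGTT), the lymphoid ETS form (AGAGGAAGT) and EBF (CCCNNGGGA) on either strand. The first 5 are members with a CTCF match. The Tmem121 window holds a relaxed match, the Rbm19 and Cep19 windows the strict form that ends in AGGGGGC, the Gpat3 window the strict form that ends in AGATGGC, and the Slc46a1 window a match that lies in soft-masked repeat sequence. The next pair are members without a CTCF match, and the last is the strongest distal region in the replicate 2 lists only.
Tmem121, chr12:113187630-113187830: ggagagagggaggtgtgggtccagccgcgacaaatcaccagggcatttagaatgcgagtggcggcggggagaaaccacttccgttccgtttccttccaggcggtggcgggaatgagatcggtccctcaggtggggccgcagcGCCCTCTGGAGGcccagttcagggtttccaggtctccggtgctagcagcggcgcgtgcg
Rbm19, chr5:120102874-120103074: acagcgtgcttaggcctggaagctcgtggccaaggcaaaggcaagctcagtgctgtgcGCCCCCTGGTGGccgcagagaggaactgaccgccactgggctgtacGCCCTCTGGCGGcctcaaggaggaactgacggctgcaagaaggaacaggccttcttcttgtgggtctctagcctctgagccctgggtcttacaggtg
Cep19, chr16:32115386-32115586: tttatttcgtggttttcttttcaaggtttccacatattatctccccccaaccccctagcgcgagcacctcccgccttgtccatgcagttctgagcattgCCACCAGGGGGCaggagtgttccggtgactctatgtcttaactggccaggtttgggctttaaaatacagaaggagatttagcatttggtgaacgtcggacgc
Gpat3, chr5:100917480-100917680: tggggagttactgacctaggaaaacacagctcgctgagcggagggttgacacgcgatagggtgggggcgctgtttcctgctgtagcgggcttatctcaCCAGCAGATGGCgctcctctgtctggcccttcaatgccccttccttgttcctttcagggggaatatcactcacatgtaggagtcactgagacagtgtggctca
Slc46a1, chr11:78453805-78454005: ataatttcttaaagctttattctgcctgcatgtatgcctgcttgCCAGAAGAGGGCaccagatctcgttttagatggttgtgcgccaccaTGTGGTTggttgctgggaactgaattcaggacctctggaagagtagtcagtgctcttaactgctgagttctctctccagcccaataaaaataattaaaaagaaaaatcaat
Pttg1, chr11:43411429-43411629: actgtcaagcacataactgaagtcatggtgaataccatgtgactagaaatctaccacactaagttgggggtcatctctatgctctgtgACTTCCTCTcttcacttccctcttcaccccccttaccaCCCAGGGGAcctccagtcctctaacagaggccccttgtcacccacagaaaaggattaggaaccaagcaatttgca
Vpreb2, chr16:17984542-17984742: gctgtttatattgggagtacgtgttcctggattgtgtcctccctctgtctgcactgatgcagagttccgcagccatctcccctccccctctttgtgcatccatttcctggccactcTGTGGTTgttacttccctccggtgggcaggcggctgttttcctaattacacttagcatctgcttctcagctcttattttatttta
Cxcl12, replicate 2 lists only, chr6:117204229-117204429: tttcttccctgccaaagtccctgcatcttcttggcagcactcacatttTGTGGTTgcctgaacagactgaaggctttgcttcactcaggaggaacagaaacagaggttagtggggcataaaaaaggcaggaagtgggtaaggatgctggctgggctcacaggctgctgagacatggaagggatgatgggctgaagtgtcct

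The members were peaks of modest strength. Strength is given as the percentile of a peak's −log10 q within its own list. This is a rank among the peaks of that list and no common scale between lists. The 8148 distal regions in all 4 lists had a median percentile of 61.5 in CDK6-WT 1 and 73.4 in CDK6-WT 2. Their median −log10 q was 12.82 and 11.76 in the same order. In CDK6-WT 1 the members had a median percentile of 35.5, with quartiles of 19.6 and 52.6, and in CDK6-K43M 1 a median of 41.5, with quartiles of 24.0 and 58.7. Distal regions in all 4 lists had medians of 61.5 and 66.0 in these same lists. In absolute terms the median member had a −log10 q of 7.32 in both lists and a fold enrichment over local background of 5.83 in CDK6-WT 1 and 5.82 in CDK6-K43M 1. The recovered number of reads at the summit had a median of 16 in CDK6-WT 1 (range 9 to 52) and of 20 in CDK6-K43M 1 (range 9 to 65). The set was not made of borderline calls alone: 860 members (18.9%) lay above the median of both lists and 12 lay in the top 10% of both, while 2421 (53.3%) lay below the median of both. Strength in the 2 lists went together, with Pearson's r of 0.51 and Spearman's rho of 0.48 across the 4546 regions. This is a description only, since all points share the same 2 libraries and were kept for being called in both.

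**Figure D1:**
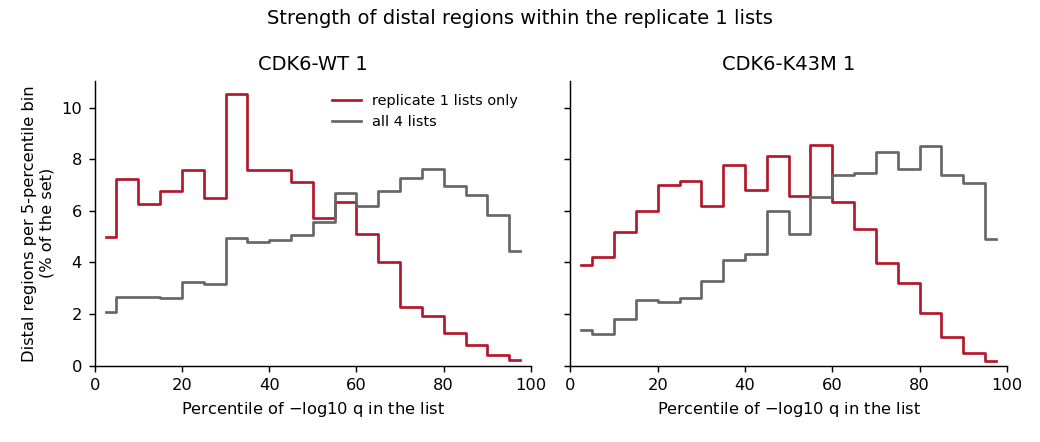
Distribution of −log10 q percentiles in the list of CDK6-WT 1 (left) and of CDK6-K43M 1 (right), as the percentage of each set of distal regions per bin of 5 percentiles. Members (red) have medians of 35.5 and 41.5, and distal regions in all 4 lists (grey) have medians of 61.5 and 66.0.

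The members were also narrow and often lay close to replicate 2 peaks without touching them. Their merged intervals had a median width of 286 bp (quartiles 238 and 364 bp), against 368 bp for the replicate 2 only set. Regions in all 4 lists had 642 bp, but these join peaks of 4 lists and the members peaks of 2. Within single lists, the members' peaks had a median width of 222 bp in CDK6-WT 1 and 251 bp in CDK6-K43M 1. Peaks of regions in all 4 lists had 353 and 419 bp there. The nearest replicate 2 peak began a median of 6513 bp away. It lay within 500 bp for 525 members (11.5%, interval 10.7 to 12.5) and within 5000 bp for 1994 (43.9%, 42.4 to 45.3). The replicate 2 only set was much alike at short range. Of its 5214 regions, 592 (11.35%) lay within 500 bp and 36.7% within 5000 bp of a replicate 1 peak. Just outside the selection stood 946 distal regions with both replicate 1 peaks and a CDK6-WT 2 peak, whose median percentile in CDK6-WT 2 was 29.5 with a −log10 q of 4.20. A further 1089 regions had both replicate 1 peaks and a CDK6-K43M 2 peak, at a median percentile of 31.3 and a −log10 q of 4.89 in that list. Just inside, the 3 weakest members outside chromosome 18 lay in introns of Ajuba (−log10 q of 1.81 in CDK6-WT 1 and 1.87 in CDK6-K43M 1) and Dnmt3a (2.17 and 1.81) and 13155 bp downstream of the start of Chit1 (2.39 and 1.85). Signal below the calling threshold was not analysed here, so the absence of a replicate 2 peak is not the absence of CDK6.

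The 10 strongest members are named by their nearest protein-coding gene. The first lay at chr12:113187439-113187913 in an intron of Tmem121, 1800 bp downstream of its start and next to the 3′ end of the immunoglobulin heavy chain locus. Its −log10 q was 42.9 in CDK6-WT 1 and 55.4 in CDK6-K43M 1, with 45 and 65 reads at the summit. An intergenic member at chr8:19979827-19980230, 76637 bp from the start of Gm31371, followed with a −log10 q of 40.1 and 54.0. The third lay 11457 bp downstream of the start of Pttg1, which encodes securin, the inhibitor of separase (chr11:43411366-43411768, −log10 q of 45.8 and 43.9). The fourth lay 4214 bp downstream of the start of Vpreb2, a surrogate light chain gene of the pre-B cell receptor (chr16:17984166-17985025, 43.04 and 42.47). Members 6922 bp downstream of the start of Anp32e, a histone chaperone gene, and in an exon of the zinc finger gene Zkscan17 had a −log10 q of 43.4 and 34.9 and of 37.9 and 35.1. The other 4 lay in an intron of Erich1 (34.6 and 36.4), upstream of the Notch family ligand gene Dlk1 (28.2 and 48.0), upstream of Ankrd9 (44.7 and 29.1) and within the annotated immunoglobulin heavy chain locus at chr12:114493595-114494231 (28.7 and 43.1). Of these 10, 4 lay on chromosome 12 and 5 held a relaxed CTCF match. The strongest distal regions of the replicate 2 only set ranked higher in their own lists: those near Cxcl12, Csf1 and Ipo11 had mean percentiles of 99.8, 99.8 and 99.7, against 97.7 for the leading member.

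CTCF motifs were more common at the members than in the replicate 2 only set or in regions in all 4 lists. A strict match, in either of the forms CC, any 3 bases and AGGGGGC or CC, any 3 bases and AGATGGC, lay within 100 bp of the summit at 511 of 4546 members (11.2%, 95% Wilson interval 10.4 to 12.2). It lay at 27 of 5214 regions in the replicate 2 lists only (0.518%, 0.356 to 0.752) and at 132 of 8148 regions in all 4 lists (1.62%, 1.37 to 1.92). The difference between the mirror sets was 10.7 percentage points (Newcombe interval 9.81 to 11.7), and that from the regions in all 4 lists was 9.62 points (8.69 to 10.6). Over all distal regions the share was 4.19%. In equally wide windows placed 1000 bp from the summits it was 0.528% for the members, 0.345% for the replicate 2 only set and 0.387% for regions in all 4 lists. The relaxed form, added after the strict ones had been seen, was matched by 1488 members (32.7%, 31.4 to 34.1), 169 regions of the replicate 2 only set (3.24%, 2.79 to 3.76) and 576 regions in all 4 lists (7.07%, 6.53 to 7.65). Its share in the flanks was 4.02%, 2.46% and 3.48%. The intervals cover counting error over regions only, and no p is given, because the sets were made from the same 4 libraries and only 2 libraries stand on each side.

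**Figure D2:**
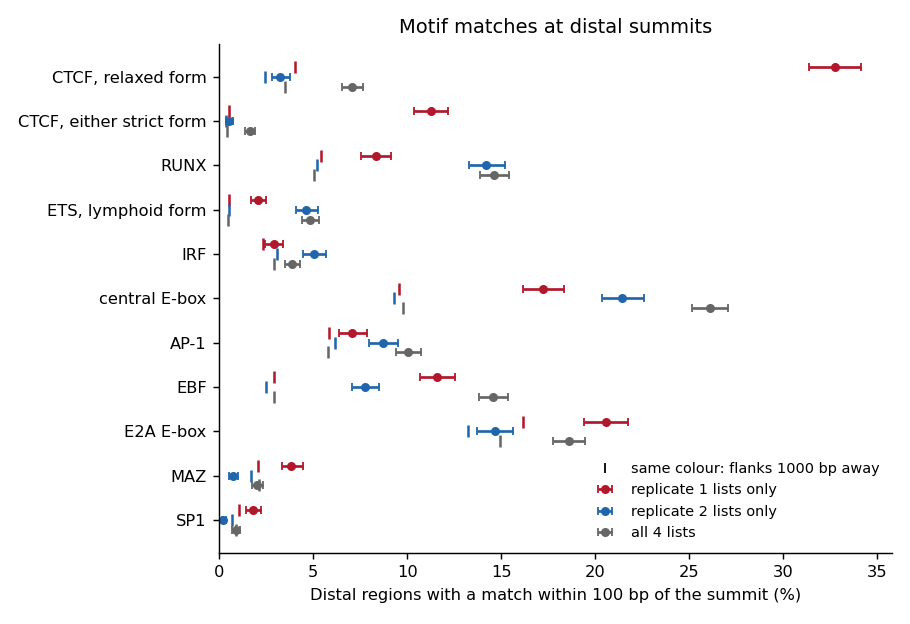
Percentage of distal regions with a motif match within 100 bp of the summit, with 95% Wilson intervals, for members (red), regions in the replicate 2 lists only (blue) and regions in all 4 lists (grey). Vertical ticks give the share in windows 1000 bp from the summits. The relaxed CTCF form is at 32.7% of members and at 3.24% of regions in the replicate 2 lists only.

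The CTCF matches lay at the summits of the members. The centre of the nearest relaxed match was within 25 bp of the summit in 744 of the 1488 members with one (Wilson interval 47.5% to 52.5%), at a median distance of 25 bp. In the replicate 2 only set the corresponding share was 32.0% (25.4 to 39.3) and the median 39.5 bp, and in regions in all 4 lists it was 30.2% (26.6 to 34.1) and 40.5 bp.

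**Figure D3:**
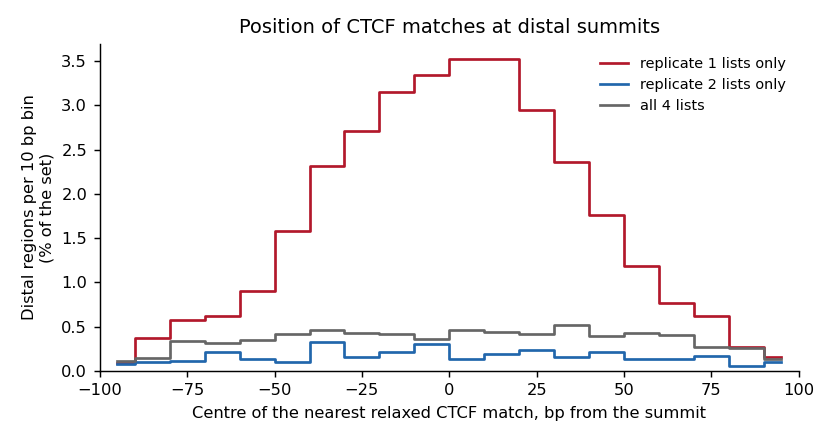
Distance in bp from the summit to the centre of the nearest relaxed CTCF match, as the percentage of each set per bin of 10 bp. The members (red) peak at the summit, and 744 of their 1488 matches lie within 25 bp, at a median distance of 25 bp against 39.5 and 40.5 bp in the other sets. Counts fall towards 100 bp because a match has to lie whole inside the window.

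The CTCF motif was also common in distal regions that just missed the selection on the replicate 1 side. Among distal regions found in CDK6-K43M 1 alone 31.5% (30.2 to 32.9) held a relaxed match, and in CDK6-WT 1 alone 24.8% (23.0 to 26.8). Among those found in CDK6-WT 2 alone the share was 5.10% (4.35 to 5.97), and in CDK6-K43M 2 alone 3.78% (3.28 to 4.36). Regions with both replicate 1 peaks and 1 replicate 2 peak lay between, at 22.8% with CDK6-WT 2 and 20.2% with CDK6-K43M 2. Regions with peaks in CDK6-WT 1 and both replicate 2 lists were at 4.22% (2.81 to 6.31), within the range of the replicate 2 lists. Taken list by list, with every distal peak scored at its own summit, the share was 16.2% in CDK6-WT 1 and 18.5% in CDK6-K43M 1. It was 5.98% in CDK6-WT 2 and 5.73% in CDK6-K43M 2. The 2 lists of each replicate number lay closer to each other than to either list of the other number. Of the 1561 distal regions with a strict match, 511 were members and 616 lay in a single replicate 1 list, whereas 93 (5.96%) were found in replicate 2 lists only.

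**Figure D4:**
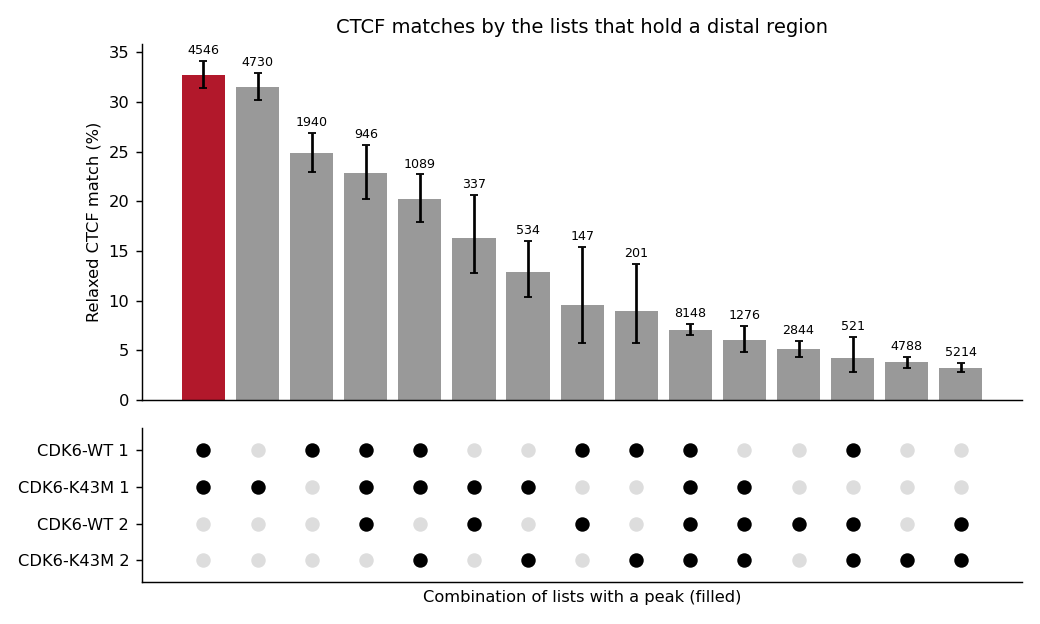
Percentage of distal regions with a relaxed CTCF match for each of the 15 combinations of lists, in falling order, with 95% Wilson intervals and the number of regions above each bar. Filled circles show which lists hold a peak. The members (red) stand first at 32.7%, and the combinations without a replicate 1 peak all lie at or below 5.10%.

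The CTCF share was high in members of every strength and of nearly every base composition. Split into 4 groups of nearly equal size by mean percentile, the members held a relaxed match in 28.6% (26.0 to 31.3), 35.9% (33.1 to 38.7), 35.0% (32.3 to 37.8) and 31.5% (28.9 to 34.2) from the weakest to the strongest group. Members with and without a match had mean percentiles of 38.2 and 37.5 at the median. At a GC content under 45% the relaxed form was at 32.9% of 858 members and 1.37% of 1750 regions in the replicate 2 lists only. From 45% to 50% it was at 32.8% and 3.05%, from 50% to 55% at 33.0% and 4.06%, and from 55% to 60% at 34.4% and 7.43%. At 60% and above the shares were 27.9% of 366 members (23.5 to 32.7) and 12 of 80 regions (8.79% to 24.4%), whose intervals overlap.

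Words of 8 bases, scored on both strands without reference to any motif, were ranked by the difference in share between the mirror sets. The word AGAGGGCA was at 9.11% of members and 2.03% of the replicate 2 only set, AAGAGGGC at 6.64% and 0.959%, AGAGGGCG at 5.96% and 0.288%, and CAGGGGGC at 5.83% and 0.652%. These were the 4 words with the highest difference, and each holds most of the last 7 bases of a CTCF form. In the opposite direction stood AAGAGGAA, at 3.83% of members and 10.7% of the replicate 2 only set, AGAGGAAG at 5.24% and 10.6%, and AAACCACA at 3.28% and 6.92%. The first pair overlap the lymphoid ETS form, and the last overlaps the RUNX form on the other strand. The words were ranked on the same regions and got no test.

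Matches to RUNX, the lymphoid ETS form, IRF, the central E-box and AP-1 were rarer in the members than in either other set. RUNX matches, for the core-binding factors that open lymphoid enhancers, were at 8.32% of members, 14.2% of the replicate 2 only set and 14.6% of regions in all 4 lists. The difference from the replicate 2 only set was -5.90 points (-7.14 to -4.65). The lymphoid ETS form, bound by PU.1 and its relatives, was at 2.05%, 4.62% and 4.82% (difference -2.58 points, -3.29 to -1.87). The IRF motif was at 2.88%, 5.03% and 3.87% (-2.14 points, -2.91 to -1.37) and the central E-box CAGCTG at 17.2%, 21.4% and 26.1% (-4.24 points, -5.80 to -2.67). AP-1 (TGANTCA) was at 7.06%, 8.71% and 10.1%. Its difference of -1.65 points (-2.71 to -0.573) was not kept apart from 0 when only peaks with a −log10 q of at least 10 were used (-0.511 points, -2.26 to 1.22). Leaving out 1 library changed the size of these differences. Without CDK6-WT 2 they were -2.74 points for RUNX, -1.17 for the lymphoid ETS form, -1.34 for IRF and -1.64 for the central E-box. Without CDK6-K43M 2 the ETS difference was -1.66 points, that of the central E-box -2.01 and that of AP-1 -1.04. Beside their flanks, at 5.39% for RUNX and 0.528% for the ETS form, the members still held both more often at the summit.

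Not every B-cell motif followed that order. EBF, the motif of the factor that commits progenitors to the B lineage, was at 11.6% of members, 7.73% of the replicate 2 only set and 14.6% of regions in all 4 lists (difference from the former 3.86 points, 2.69 to 5.05, and from the latter -2.98 points, -4.17 to -1.76). Without CDK6-WT 1 the former difference was 1.43 points (0.515 to 2.32). The E2A E-box CAGGTG was at 20.5%, 14.7% and 18.6%. In the flanks its shares were 16.2%, 13.2% and 14.9%, so these already differed in the same order. The word CAGGTG can also lie inside a relaxed CTCF match, and the part of such overlap was not tested. The other ETS form, CCGGAAGT, was at 0.902%, 0.192% and 0.712% (difference between the mirror sets 0.710 points, 0.424 to 1.04). The NRF-1 motif (GCGCATGCG) was at 13 members (0.286%), 0 regions of the replicate 2 only set and 25 regions in all 4 lists (0.307%). These ETS and NRF-1 shares were not recomputed under other settings. The GC-rich SP1 (GGGGCGGGG) and MAZ (GGGGAGGGG) motifs were at 1.782% and 3.828% of members, against 0.211% and 0.710% of the replicate 2 only set. Without CDK6-WT 1 the SP1 difference of 1.57 points fell to an interval of 0.735 to 1.27 points. For STAT, NF-kappaB, POU, FOX, TCF/LEF, MEF2, the second NFY form, the second RUNX form and IKZF the interval of the difference between the mirror sets included 0.

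Members with and without CTCF differed in their other motifs. EBF was at 5.24% of the 1488 members with a relaxed CTCF match and at 14.7% of the 3058 without (-9.44 points, -11.1 to -7.70). RUNX was at 6.18% and 9.35% (-3.17 points, -4.72 to -1.51) and the lymphoid ETS form at 0.874% and 2.62% (-1.74 points, -2.47 to -0.944). Members with a CTCF match lay between genes more often, in 47.0% against 40.0% (7.05 points, 3.98 to 10.1). Their distance to transcript starts was alike at short range, with 39.4% and 38.8% within 5000 bp (interval of the difference -2.41 to 3.64 points).

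The members lay nearer to transcript starts than the replicate 2 only set and in sequence richer in GC, although more of them were intergenic. Their summits were a median of 7019 bp from the nearest transcript start, against 10752.5 bp for the replicate 2 only set and 9110.5 bp for regions in all 4 lists. Within 5000 bp of a start lay 39.0% of the members (37.6 to 40.5), 29.0% of the replicate 2 only set and 30.6% of regions in all 4 lists, so the members led by 10.03 points (8.15 to 11.9) and 8.42 points (6.69 to 10.2). With a wider promoter window, 5000 bp before to 1000 bp after a start, the former difference was 2.70 points (0.995 to 4.41). Exons held 13.5%, introns 44.2% and intergenic sequence 42.3% of the members, and in the replicate 2 only set 7.96%, 55.9% and 36.1%. The intergenic share was higher by 6.19 points (4.25 to 8.12) and the intronic share differed by -11.7 points (-13.7 to -9.75). The mean GC content within 100 bp of the summit was 50.9% in members, 47.5% in the replicate 2 only set and 50.8% in all 4 lists. The members exceeded the mirror set by 3.42 points (3.16 to 3.67), while their interval against regions in all 4 lists, -0.105 to 0.381 points, included 0. The observed to expected ratio of CpG was 0.287, 0.208 and 0.275.

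Repeat sequence was more common at the members' summits than at those of either other set. Soft-masked bases, which the reference writes in lower case because they belong to annotated repeats, filled over 50% of the window at 364 members (8.01%, 7.25 to 8.83). They did so at 2.70% of the replicate 2 only set (5.30 points fewer, 4.41 to 6.22) and at 2.26% of regions in all 4 lists. The excess was seen among members with a relaxed CTCF match (11.8%) and among those without (6.18%). In 281 of the 1488 members with a match (18.88%, 16.98 to 20.95) most bases of the match itself were soft-masked, as in the Slc46a1 window above, against 20 of 169 (11.8%, 7.79 to 17.6) in the replicate 2 only set and 31 of 576 (5.38%, 3.82 to 7.54) in all 4 lists.

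The members were spread unevenly over chromosomes, and in some stretches, but not in all, the control background differed in the same direction. Chromosome 12 held 338 members and 98 regions of the replicate 2 only set, chromosome 5 held 502 and 224, chromosome 8 held 250 and 184, and chromosome 17 held 227 and 162. The order was reversed on chromosome 13, with 114 and 291, and on chromosome X, with 36 and 147. On chromosomes 2 and 3 the members made up 38.7% and 35.3% of the regions of both sets together. The local control background at each peak was recovered from the peak statistics and divided by the lowest value in its list. Many peaks lay at this lowest value: 27.9% in CDK6-WT 1, 27.8% in CDK6-K43M 1, 36.1% in CDK6-WT 2 and 36.5% in CDK6-K43M 2. Averages such as 1.06 and 1.07 therefore lie near a floor. On chromosome 12 from 50 Mb on it averaged 1.41 in CDK6-WT 1 and 1.39 in CDK6-K43M 1, but 1.06 in CDK6-WT 2 and 1.07 in CDK6-K43M 2, and 292 members stood against 33 regions of the mirror set. The lists themselves held 1117 and 1278 peaks there in replicate 1 and 444 and 477 in replicate 2. From 0 to 50 Mb of the same chromosome the background was 1.348, 1.376, 1.303 and 1.295 in that order of libraries, and 46 members stood against 65 regions. From 0 to 60 Mb of chromosome 8 the background was 1.45 and 1.47 in replicate 1 and 1.1 and 1.07 in replicate 2, with 85 members against 20 regions. From 30 to 60 Mb of chromosome 13 it was 1.14 and 1.12 against 1.32 and 1.33, with 25 members against 134 regions. From 20 to 60 Mb of chromosome 17, in contrast, it was 1.345 and 1.359 against 1.29 and 1.275, with 156 members against 51 regions. These stretches were chosen after their values were seen. Over whole chromosomes the background ratio, replicate 1 over replicate 2, was 1.056 on chromosome 17 and 1.057 on chromosome 13. On chromosome 14 it was 1.131, with 145 members against 239 regions.

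Over 193 windows of 10 Mb with at least 20 regions of the mirror sets, the members' share went with the background ratio, replicate 1 over replicate 2, at a Pearson's r of 0.49 and a Spearman's rho of 0.38. This is a description across windows, which share their libraries and are not replicates. The 23 windows with a ratio of 1.2 or more held 886 members and 335 regions of the mirror set (72.56% members, 69.99 to 74.99). The 147 windows with a ratio from 0.9 to 1.1 held 3005 and 3751 (44.5%, 43.3 to 45.7), the 18 windows from 1.1 to 1.2 held 311 and 401 (43.7%, 40.1 to 47.4), the 4 windows from 0.8 to 0.9 held 8 and 123, and the 1 window below 0.8 held 3 and 51. The share thus did not rise from the middle class to the next. On chromosome 5 from 0 to 110 Mb the background was 1.89 in both replicate 1 lists and 1.33 and 1.31 in CDK6-WT 2 and CDK6-K43M 2. There 197 members stood against 167 regions (54.1%). From 110 to 150 Mb of that chromosome it was 1.794 and 1.807 in replicate 1 and 1.264 and 1.275 in replicate 2. In this part 300 members stood against 57 regions (84.03%, 79.87 to 87.47). Both stretches were chosen after their values were seen. The 10 Mb window from 10 Mb of chromosome 7, picked after its value was seen, held 46 members against 2 at a ratio of 1.03. The part of the control background in the selection was not tested. In the regions of windows with a ratio from 0.9 to 1.1 alone, the strict CTCF share differed between the mirror sets by 10.7 points (9.60 to 11.8) and the GC content by 3.37 points (3.08 to 3.67). The ratio is taken from means over the called peaks of each list in a window. It does not match the background at the members themselves.

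**Figure D5:**
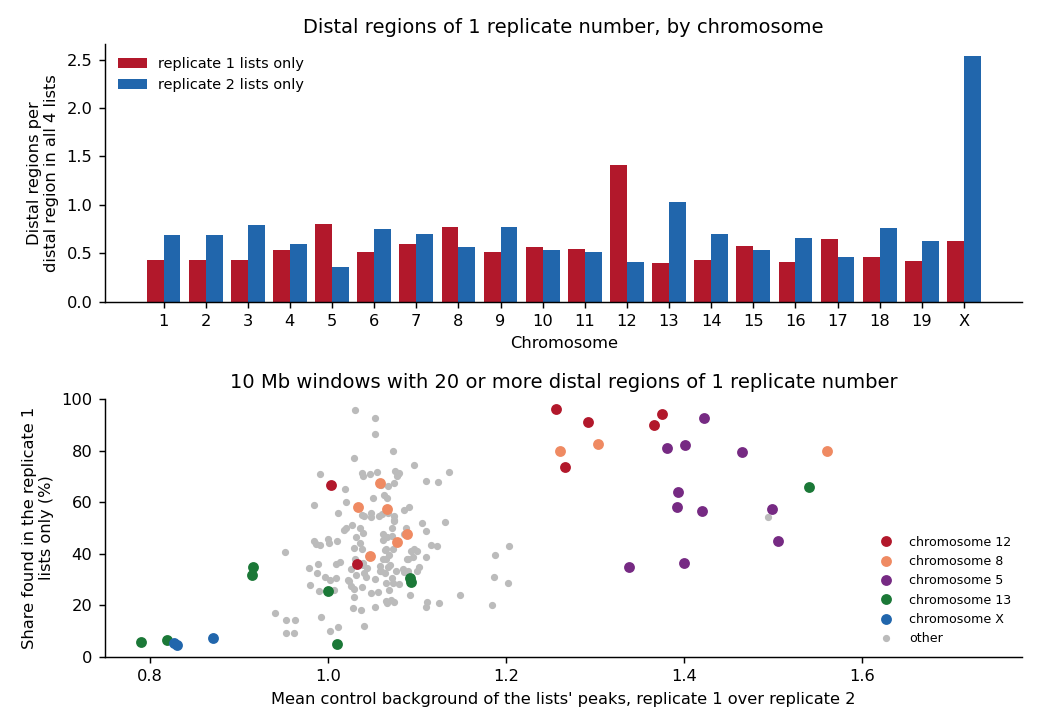
Top, number of distal regions in the replicate 1 lists only (red) and in the replicate 2 lists only (blue) per distal region in all 4 lists, by chromosome. Bottom, share of members among distal regions of both sets in 193 windows of 10 Mb (vertical axis) against the ratio of the mean recovered control background (horizontal axis). Chromosome 12 windows from 50 Mb on lie at ratios above 1.2 and shares above 70%, and the 3 chromosome X windows lie below 0.9 and under 10%.

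Within replicate 1, the members had similar fold enrichment with both CDK6 variants. The ratio of fold enrichment, CDK6-K43M 1 over CDK6-WT 1, had a median of 0.997 over the members, with quartiles of 0.834 and 1.19. Over all 27973 regions with a peak in both replicate 1 lists the median was 1.01. With 1 library per variant there is no replicate check, so a ratio of at least 1.5 in either direction was counted and no p is given. Of the members, 313 (6.89%) were at least 1.5 times higher in CDK6-K43M 1, against 7.14% of all regions with both peaks, and 293 (6.45%) were at least 1.5 times higher in CDK6-WT 1, against 5.78%. These shares lay near the background. With recovered reads per unit of treatment depth in place of fold enrichment the median was 1.02. On that scale 309 members (6.80%) were at least 1.5 times higher in CDK6-K43M 1, against 6.26% of all regions with both peaks, and 193 (4.25%) were at least 1.5 times higher in CDK6-WT 1, against 3.18%, so the near balance of the directions depended on the scale. In that measure 56.7% (54.1 to 59.2) of the members with a relaxed CTCF match and 51.73% (49.96 to 53.5) of those without were higher in CDK6-K43M 1, a difference of 4.92 points (1.83 to 7.98) that rests on 1 library of each variant.

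Members were assigned to the nearest protein-coding transcript start within 100 kb, which placed 4259 of them at 3080 genes, or 14.2% of the 21728 protein-coding genes. The gene nearest to a member carried a promoter region in all 4 lists in 54.6% of cases (53.1 to 56.1), against 49.6% (48.1 to 51.1) for the replicate 2 only set and 65.0% (63.9 to 66.1) for regions in all 4 lists. Among all protein-coding genes the share was 33.7%.

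Of the 15 genes with the most members, 6 lie on chromosome 12 from 50 Mb on and 9 elsewhere. Among the latter, Med13l, 2900026A02Rik, Aacs, Cux1 and Grifin lie on chromosome 5 from 110 to 150 Mb. That part of chromosome 5 held 300 members against 57 regions of the mirror set, at the unequal background given above. Fos, Irf2bpl, Tmem108, Tmem121 and Zfp36l1 had 8 members each and no region of the replicate 2 only set. All but Tmem108, which is on chromosome 9, lie beyond 50 Mb of chromosome 12, as do Lgmn (7 members) and Foxn3 (6). In that stretch 24.7% of the 486 protein-coding genes had a member and 5.14% a region of the replicate 2 only set, whereas elsewhere the shares were 13.9% and 13.5%. The low replicate 2 background given above covers the same stretch. Around Fos, the immediate early gene of an AP-1 subunit, the 8 members were all intergenic and lay between positions -30192 and 39447 bp relative to the start. The strongest, at chr12:85493560-85494055, had 26 reads at the summit in CDK6-WT 1 and 41 in CDK6-K43M 1 and held RUNX and central E-box matches. The weakest by mean percentile, at chr12:85444461-85445017, had 13 and 19. Zfp36l1, an RNA-binding protein that marks transcripts for decay, had members up to 98542 bp from its start, the strongest with 30 and 42 reads in an intron of a neighbouring annotation. Lgmn encodes the lysosomal protease legumain.

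The 8 members at Tmem121 traced the far side of the immunoglobulin heavy chain locus. Beside the leading member inside the gene, 7 lay 30196 to 42455 bp downstream of its start, between the gene and the first annotated constant segment of Igh at chr12:113254830. Members at chr12:113219866-113220327 and chr12:113221329-113221599 held the strict CTCF form that ends in AGGGGGC, with 17 and 28 and with 19 and 23 reads at the summit in CDK6-WT 1 and CDK6-K43M 1. The strongest of the 7, at chr12:113228108-113228701, held RUNX, EBF and POU matches, the latter an octamer sequence of the kind found in immunoglobulin enhancers, with 39 and 40 reads. The span of the annotated Igh segments held 22 members, no region of the replicate 2 only set and 3 regions in all 4 lists. Of the 22 members, 7 held a relaxed CTCF match. In peaks, the locus had 55 in CDK6-WT 1 and 81 in CDK6-K43M 1 but 15 in CDK6-WT 2 and 13 in CDK6-K43M 2. It lies in the chromosome 12 stretch from 50 Mb on, where 292 members stood against 33 regions of the mirror set. That stretch held 1117 and 1278 peaks in replicate 1 and 444 and 477 in replicate 2, so the skew was not particular to Igh. The light chain locus Igk on chromosome 6 held 12 members, 10 regions of the replicate 2 only set and 10 in all 4 lists. These loci were counted after the leading members had been seen.

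Med13l, a subunit of the Mediator kinase module, had 7 members, 1 region of the replicate 2 only set and 12 regions in all 4 lists, and the homeobox gene Cux1 had 6, 1 and 13. Aacs (acetoacetyl-CoA synthetase), Grifin and 2900026A02Rik, all on chromosome 5, had 6 members each. Of the 6 at 2900026A02Rik, 3 held a relaxed CTCF match, as did 3 of the 6 at Pebp4 on chromosome 14. Dennd4a on chromosome 9 had 6 members, none with a relaxed CTCF match, and the 15th gene, Ahdc1 on chromosome 4, had 5. Of the windows of 1 Mb, that from 19 Mb of chromosome 7 held 28 members against 2 regions of the replicate 2 only set, and among its 53 protein-coding genes Fosb led with 4 members. The windows from 136 and 123 Mb of chromosome 5, within the stretch from 110 to 150 Mb, held 23 and 19 members. That from 133 Mb of chromosome 4 held 20 and that from 80 Mb of chromosome 10 held 19.

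Gene lists of the lineage and of CDK6 biology had members at a larger share of genes than the 14.2% of all protein-coding genes. Most had regions in all 4 lists at a still larger share. Over all protein-coding genes, 13.35% had a region of the replicate 2 only set and 17.43% a region in all 4 lists. In most of these gene lists the replicate 2 only set, too, lay above its share over all genes. Longer loci can catch more regions, and locus length was not taken into account. Of 22 B-lineage transcription factor genes, 12 had a member, 13 a region of the replicate 2 only set and 20 a region in all 4 lists. Bach2 had 4 members, and Ebf1 and Pou2f2 had 3 each. The strongest at Bach2 lay in an exon 5202 bp from a transcript start, with 27 and 41 reads at the summit. The strongest at Pou2f2, the gene of the octamer factor Oct-2, lay in an intron, with 29 and 27 reads, and held a relaxed CTCF match. In contrast Ikzf1 and Tcf4 had no member and 4 regions each of the replicate 2 only set.

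Of 16 pre-B cell receptor and recombination genes, 6 had a member, 4 a region of the replicate 2 only set and 11 a region in all 4 lists. Plcg2, which signals below the pre-B cell receptor, had 5 members, and the 2 at chr8:117471248-117471541 and chr8:117475040-117475272 held the strict CTCF form that ends in AGGGGGC, with 18 and 20 and with 18 and 33 reads. Vpreb2 had 3 members and Cd79b 2. Among 15 lymphoid progenitor receptor and homing genes, 7 had a member and 8 a region of the replicate 2 only set. The chemokine receptor gene Cxcr4 had 3 members, and Ccr7 and Crlf2 had 2 each. In the JAK-STAT list 8 of 19 genes had a member and 6 a region of the replicate 2 only set, with 9 members and 17 such regions in all. Stat5b had 2 members, whereas Jak1 had no member and 9 regions of the replicate 2 only set. A member of this list lay at -2512 bp from a start of Bcl6, the repressor that STAT5 controls in pre-B cells, with 37 and 44 reads at the summit.

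Of 25 cell cycle genes, 8 had a member, 7 a region of the replicate 2 only set and 11 a region in all 4 lists. The D-type cyclin genes Ccnd3 and Ccnd2, whose products are the partners of CDK6, had 5 and 3 members. Of the 5 at Ccnd3, 4 lay in introns within 10411 bp downstream of a start, the strongest at chr17:47508004-47508629 with 31 reads in CDK6-WT 1 and 34 in CDK6-K43M 1 and with RUNX, lymphoid ETS and IRF matches. Cdk6 itself had 2 members, both intronic, with 20 and 21 and with 22 and 25 reads, beside 1 region of the replicate 2 only set and 7 in all 4 lists.

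Of 14 AP-1 genes, 6 had a member, 10 a region in all 4 lists and 2 (14.29%) a region of the replicate 2 only set. The last share lay near the 13.35% over all protein-coding genes. Of the 18 members of the AP-1 list, 8 belonged to Fos and 1 to Batf in the chromosome 12 stretch described above. Fosb and Junb had 4 and 3. In the glycolysis and glucose uptake list 7 of 20 genes had a member and none a region of the replicate 2 only set. Over all protein-coding genes 13.35% had a region of the latter set. Pgam1 and the lactate transporter gene Slc16a1 had 2 members each. Among genes of other blood lineages, 4 of 18 T-cell genes (22.2%), 3 of 20 myeloid genes (15%) and 1 of 17 erythroid and megakaryocyte genes (5.88%) had a member, against 14.2% of all protein-coding genes. In the same order 6, 2 and 1 of these genes had a region of the replicate 2 only set. These lists are small, and the shares were not tested.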

How the data were processed

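CDK6 occupancy was measured by anti-HA ChIP-seq in 4 libraries of pre/pro B cell lines, BCR-ABL(p185)+ and Cdk6-/-. Per the labels and the methods of the study, the authors trimmed reads with Trimmomatic 0.36, mapped them to mm10 with BWA 0.7.15, removed blacklisted regions with bedtools and multimapping reads with SAMtools 1.3.1, and called peaks per library with MACS2 2.1.0 at default parameters. The deposited peak lists give, for each peak, an interval, a summit offset, a score, a fold enrichment over local background (a ratio) and −log10 p-value and −log10 q-value columns, as the authors' peak caller wrote them. Reads that map to several places were removed, which limits what can be seen in repeats.

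Peaks sharing 1 bp or more were merged, and members were selected by their presence in the lists. The members and the gene, motif and region lists were chosen with earlier results of these data known. Whole reads at each summit and the local control background were recovered from the fold enrichment and −log10 p, with a tolerance of 0.001 on the log10 scale, and all peaks came out whole (100.0% in each list). Motifs were searched on both strands within 100 bp of the summit of the stronger peak and in windows 1000 bp to either side. Sequence was read from GRCm38 and transcript starts from GENCODE vM21, while the study used GENCODE M13. Shares carry 95% Wilson intervals, differences of shares 95% Newcombe intervals and differences of means 95% normal intervals. All cover counting error over regions only, since regions are not replicates. Genes were assigned by the nearest protein-coding transcript start within 100 kb.

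Named regions were the 10 strongest and 3 weakest members and the 3 strongest regions in the replicate 2 lists only, ranked by mean percentile outside chromosome 18. Named genes were the 15 with the most members, Cdk6, and up to 4 with the most members per gene list. Named windows were the 5 of 1 Mb with the most members. Other genes in the text were chosen after their values were seen. Alternatives were a minimum −log10 q, equal list lengths, another merging distance, summit intervals, other promoter windows, leaving out each library, and, chosen after seeing the data, windows of similar control background and the relaxed CTCF form. Tools were Python 3.11.15, matplotlib 3.10.9, scipy 1.17.1, pandas 2.3.3 and numpy 2.4.6. Read recovery, merging and the motif search were tested on simulated data. The 2 input libraries were not analysed here.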

Additional observations from a re-analysis of the deposited data

How the results depend on the processing

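The number of members moved with the threshold and with the libraries used. It was 2411 when peaks needed a −log10 q of at least 10, and 1926 when each list was held to its 20000 best peaks. Leaving out 1 library gave 5527 to 9511, with 9511 without CDK6-WT 1 and 6868 without CDK6-K43M 1, since 1 list alone then defined replicate 1. Under the first pair of settings fewer peaks were used, and the replicate 2 only set held 2118 and 3953 regions. What moved these numbers was not tested.

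The differences recomputed between members and distal regions in the replicate 2 lists only were those in GC content, intergenic share, share near transcript starts, soft-masked share and the motif shares listed here. They kept their direction under the alternatives run and, AP-1 excepted, intervals that left out 0, but several changed in size. Exon and intron shares, CpG ratio, widths, median distances and 8-base words were not recomputed. The strict CTCF difference ranged from 7.11 to 11.9 points, the GC content difference from 2.59 to 4.44, the intergenic difference from 4.48 to 12.5, the difference near transcript starts from 2.70 to 11.5 and the soft-masked difference from 2.01 (−log10 q of at least 10) to 6.23. The relaxed CTCF difference ranged from 18.01 (the same q threshold) to 32.4, RUNX from -7.67 to -2.74, lymphoid ETS from -3.84 to -1.17, EBF from 1.43 to 8.46, IRF from -2.38 to -1.20, the central E-box from -5.80 to -1.64, E2A from 4.69 to 7.63, SP1 from 0.702 to 2.52 and MAZ from 1.88 to 4.33. For AP-1 the interval included 0 under that same q threshold (-0.511) and under equal list lengths of 20000 peaks (-0.639).

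No paired analysis was possible because the selection is the replicate number itself. Each replicate number holds 1 library per variant, and its meaning is not in the labels. A cell line, a day, a sequencing run and an input library therefore cannot be told apart. Peak lists hold no signal below the calling threshold, so reads at members in replicate 2 were not measured. Control reads were recovered only at peaks.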

Other observations

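Promoter regions, which were left out of the members, showed the same order of CTCF matches. The relaxed form was at 551 of 2804 promoter regions in both replicate 1 lists only (19.6%, 95% Wilson interval 18.2 to 21.2), at 53 of 1045 in both replicate 2 lists only (5.07%, 3.90 to 6.57) and at 988 of 8228 in all 4 lists (12.01%, 11.32 to 12.73). Among promoter regions in a single list it was at 16.4% (13.9 to 19.3) in CDK6-WT 1, 18.4% (16.6 to 20.3) in CDK6-K43M 1, 6.11% (4.52 to 8.21) in CDK6-WT 2 and 3.39% (2.45 to 4.68) in CDK6-K43M 2. The strict forms were at 6.21%, 0.574% and 3.002% of the first 3 sets. The mean GC content of these sets was 58.9%, 50.5% and 62.0% in the same order. The part of GC content was not tested at promoters.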
